A study of Homo sapiens with 6 samples.

Results

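The open chromatin in and around 10 genes of the NF-κB pathway was examined in RH30 cells with and without MyoD. The genes were the Rel family members NFKB1, NFKB2, RELA, RELB and REL, the kinase IKBKB, the inhibitor NFKBIA, and the ubiquitin regulators TNFAIP3, CYLD and BIRC3. Peaks of 6 ATAC-seq libraries that overlapped were merged into 105569 regions, and a region was taken as one of a gene when the summit of its strongest peak lay in the gene body or within 50 kb of it. This gave 104 regions, of which 51 were called in all 6 libraries. ATAC-seq marks accessible DNA by the insertion of sequencing adapters by the Tn5 transposase.

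RH30 is a fusion-positive rhabdomyosarcoma cell line, which carries the PAX3::FOXO1 fusion. The 3 vector libraries came from cells given a scramble sgRNA. The 3 MyoD-deleted libraries came from cells given sgRNA against MyoD, the master transcription factor of muscle. The study describes Cas9 editing by plasmid transfection and by lentivirus, and which of them served these cells is not stated. The labels call the libraries of a group biological replicates and name no other treatment, and whether the edited cells were a single clone is not given in the sources used here. The study's text names the cells in places as a derivative with the IκBα super repressor, a form of the NFKBIA protein that holds NF-κB in the cytoplasm, whereas the labels name RH30, so the state of NF-κB signalling in these cells cannot be told from the sources used here.

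NF-κB is a dimer of Rel family proteins. In resting cells IκBα, the product of NFKBIA, keeps RELA with p50, the processed product of NFKB1, out of the nucleus, and the IκB kinase, with IKBKB as a catalytic subunit, releases it by marking IκBα for degradation. RELB pairs with p52, the processed product of NFKB2, in the non-canonical branch. TNFAIP3 (A20) and CYLD remove ubiquitin chains that carry the signal, BIRC3 (cIAP2) is a ubiquitin ligase of the same receptor complexes, and NFKBIA, TNFAIP3 and BIRC3 are themselves known NF-κB targets.

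The measure used throughout is the centred log2 summit height, the log2 of the number of fragments piled up at the summit over the smallest background of the library, less the median of that library over the 47885 regions called in all 6 libraries. A value of 0 is the height of a typical such region, and a difference of 1 is a doubling. The libraries held 63140 to 74121 peaks in vector cells and 73745 to 80608 in MyoD-deleted cells, and the smallest background, which follows depth, was 2.22 to 3.41 and 2.27 to 2.35 fragments. Without centring the median region was 0.19 higher in MyoD-deleted libraries, and the changes below are relative to that shift. Read totals were not part of the lists, so the depth of a library is unknown. A height rests on the whole number of fragments at the summit, and its counting error is larger where they are few. The smallest pileup of a peak was 8 to 10 fragments, depending on the library. At MYOD1 itself, the region at the start was at 2.75, 2.84 and 2.94 in vector replicates 1, 2 and 3 and at 2.14, 2.50 and 2.43 in MyoD-deleted replicates 1, 2 and 3, a fall of 0.49 ± 0.10 (SE; limma, adjusted p = 0.0021). By the rank of fold enrichment, the second measure used below, this region did not pass (limma, adjusted p = 0.408). A small edit leaves most of a promoter in place, so this height does not show whether the gene was cut.

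The κB sites found at 7 of these genes lay within merged regions that were called in both groups. Of the 8 genes with entries (14 in all) in the RefSeq promoter table (GRCh38.p14; 250 bases before to 50 after the start), 7 held the 10-base κB consensus on either strand, against 13.3% of all 27305 genes in the table. RELA held none, and RELB and IKBKB had no entry. For each of the 7 genes, 1 site is given with 10 bases on each side, 5′ to 3′ on the strand of the gene. Capitals mark the consensus, which reads on the opposite strand in those of REL, NFKBIA, TNFAIP3, CYLD and BIRC3.
NFKB1: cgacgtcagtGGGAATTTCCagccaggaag
NFKB2: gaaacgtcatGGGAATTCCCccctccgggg
REL: gtcagccgcgGGAAATTCCCctcccgccag
NFKBIA: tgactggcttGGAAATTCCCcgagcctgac
TNFAIP3: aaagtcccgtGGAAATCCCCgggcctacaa
CYLD: ttgacagagcGGAAAGTCCCttcggccggc
BIRC3: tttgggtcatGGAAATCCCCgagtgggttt

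Each of these sites was inside the 5′ region of its gene, the region called in most libraries with its summit nearest the 5′ end. Such a region merges the peaks of all libraries. Whether a site lay within a peak of each library was not examined. The NFKB1 site was at chr4:102501310-102501319, 355 bp from the summit, and the NFKB2 site at chr10:102394471-102394480, 286 bp from it. The REL site was at chr2:60881528-60881537, 57 bp from it. The NFKBIA site, at chr14:35404821-35404830, was 661 bp away, while the TNFAIP3 site, at chr6:137867204-137867213, and the CYLD site, at chr16:50741897-50741906, were 9 and 10 bp away. The BIRC3 site was at chr11:102317285-102317294, 181 bp from the summit. Within 100 bp of the summit, 4 of the 10 5′ regions held the consensus (NFKB2, REL, TNFAIP3 and CYLD), against 9.2% of all regions within 2 kb of a start. A match in sequence is a description and does not show that a factor was bound.

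The 5′ regions were open in every library, and none of the 10 passed the test for a change in height. All of them were called in 6 of 6 libraries, with every height above that of the typical region. In limma's test over all 47885 regions, 0 of 10 had an adjusted p under 0.05, with 1 higher and 1 lower at an unadjusted p under 0.05. Of all regions within 2 kb of a start that were called in all 6 libraries, 7.43% passed in either direction.

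Among the Rel family genes, NFKB2 had the highest 5′ region (chr10:102393813-102396006, the summit 79 bp past the start). It was at 2.83, 2.97 and 3.14 in vector replicates 1, 2 and 3 and at 2.97, 2.97 and 3.04 in MyoD-deleted replicates 1, 2 and 3, and the groups overlapped (difference 0.01 ± 0.09, SE; adjusted p = 0.941). REL, which encodes c-Rel, was at 2.52, 2.68 and 2.76 against 2.74, 2.59 and 2.70 (chr2:60880819-60882414, summit in the 5′ untranslated part of exon 1; difference 0.02 ± 0.09). RELB was at 2.30, 2.61 and 2.61 against 2.32, 2.41 and 2.54 (chr19:45001212-45002449, summit in intron 1; difference -0.08 ± 0.10). Both pairs of groups overlapped.

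RELA, which encodes the transactivating subunit p65, was at 1.63, 1.81 and 2.03 in vector libraries and at 2.01, 1.97 and 2.15 in MyoD-deleted libraries (chr11:65662669-65663916; difference 0.22 ± 0.11, adjusted p = 0.175). It passed the test without centring (0.41, adjusted p = 0.0199). NFKB1 went the other way in its mean, at 1.56, 1.27 and 1.80 against 1.27, 1.20 and 1.33 (chr4:102500531-102502376, summit in exon 1; difference -0.28 ± 0.13, adjusted p = 0.133). Vector replicate 2 was the vector library that lay among the MyoD-deleted ones, and without it the NFKB1 difference was -0.41 with an adjusted p of 0.0394. Leaving out the library that overlapped widens the difference by construction. The NFKB1 difference was -0.15 without vector replicate 3 (adjusted p = 0.456) and -0.08 without centring (adjusted p = 0.665). No other setting tried passed for NFKB1.

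The 5′ regions of the regulators did not pass either. IKBKB had the lowest 5′ region of the 10, at 0.92, 1.10 and 1.28 against 1.21, 0.96 and 0.88 (chr8:42270728-42272106; difference -0.08 ± 0.13). NFKBIA was at 1.58, 1.65 and 1.91 against 1.59, 1.79 and 1.38 (chr14:35403660-35405180, summit in intron 1; difference -0.13 ± 0.12). TNFAIP3 was at 2.19, 2.58 and 2.49 against 2.54, 2.38 and 2.62 (chr6:137866649-137868213; difference 0.09 ± 0.11). In each of these genes the libraries of the groups overlapped.

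CYLD, the deubiquitinase that trims lysine-63 and linear chains, was the gene whose groups did not overlap at the 5′ region, with 2.46, 2.74 and 2.67 in vector libraries and 2.76, 2.81 and 2.91 in MyoD-deleted libraries (chr16:50741366-50742437). The difference was 0.21 ± 0.10 (adjusted p = 0.134), and it passed only without centring among the settings tried (0.40, adjusted p = 0.0197), while by rank its sign turned (-0.11 inverse-normal units, adjusted p = 0.726). No overlap in that direction was seen in 19.8% of all regions called in all 6 libraries, and in 1481 of the 10623 of these within 2 kb of a start. BIRC3 was at 1.52, 1.88 and 1.91 against 1.54, 1.67 and 1.46 (chr11:102317059-102317921; difference -0.21 ± 0.12, adjusted p = 0.215). Without vector replicate 1, the vector library that lay among the MyoD-deleted ones, the difference was -0.34 with an adjusted p of 0.0246. It was -0.16 without vector replicate 2 (adjusted p = 0.5), -0.14 without vector replicate 3 (adjusted p = 0.468) and -0.02 without centring (adjusted p = 0.915). No other height setting tried passed for BIRC3.

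BIRC3 was also the gene that the second measure called. By the rank of the fold enrichment over local background among regions called in all 6 libraries, its 5′ region fell from a mean percentile of 92.7 ± 1.84 (SD, n = 3) to 81.9 ± 2.85 (SD, n = 3; limma on inverse-normal ranks, adjusted p = 0.0376). That call was lost when any 1 of the 6 libraries was left out. By rank, 0 of the 51 member regions rose and 1 fell, with 2 and 7 at an unadjusted p under 0.05, while 4.12% of all 47885 regions rose and 4.67% fell. Ranks of -log10 p in place of fold enrichment called 1 region of NFKBIA higher and 1 of IKBKB lower. They did not call the BIRC3 5′ region.

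**Figure D1:**
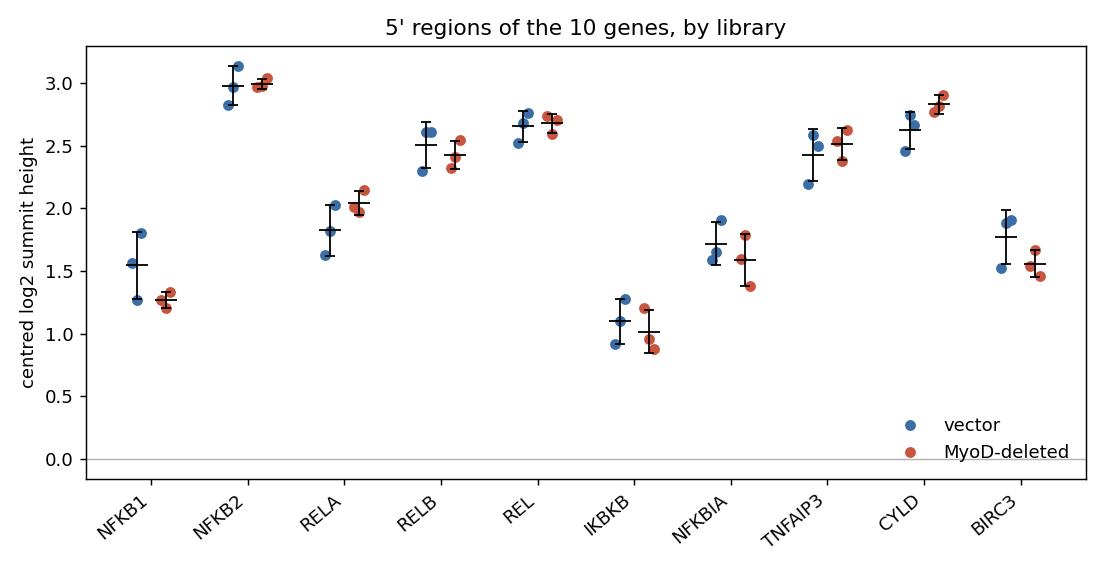
Centred log2 summit height (y axis) of the 5′ region of each of the 10 genes in the 3 vector libraries (blue points) and the 3 MyoD-deleted libraries (red points), with the mean and SD in black. The points of the groups overlap in every gene but CYLD, and all lie above 0, the height of a typical region.

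Away from the starts a few regions changed. Of the 51 member regions called in all 6 libraries, 3 were higher and 1 was lower in MyoD-deleted cells by centred height, against 11.4% and 12.8% of all regions. Without centring the counts were 9 and 1, against 24.7% and 8.03%. The median change over the 51 regions was 0.02, beside 0.04 over all regions. A further 4 of the 104 regions were gained, that is called in 3 of 3 MyoD-deleted and 0 of 3 vector libraries, and 1 was lost by the reverse rule, against 4.56% and 1.78% of all regions. A region without a call had too little signal for the peak caller, which is not the same as none. As shares of the members, these counts came to 5.88% higher, 1.96% lower, 3.85% gained and 0.962% lost, each below that of all regions. In 6 of the 51 regions every MyoD-deleted library was above every vector library, and in 5 every one was below, against 19.8% and 18.1%.

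All 4 changed heights and all 5 gained or lost regions lay over 2 kb from any protein-coding start. There, 30 member regions were called in all 6 libraries and 4 of them passed, beside 29.0% of all such regions. Of all 93036 regions away from starts, 5.02% were gained and 1.98% lost, beside 4 and 1 of the 83 of the members. The other 11 regions called near a start belonged to neighbouring genes, and 0 of those passed, with 1 higher at an unadjusted p under 0.05. Of the 83 regions away from starts, 29 were nearer to the start of another gene than to that of the member.

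**Figure D2:**
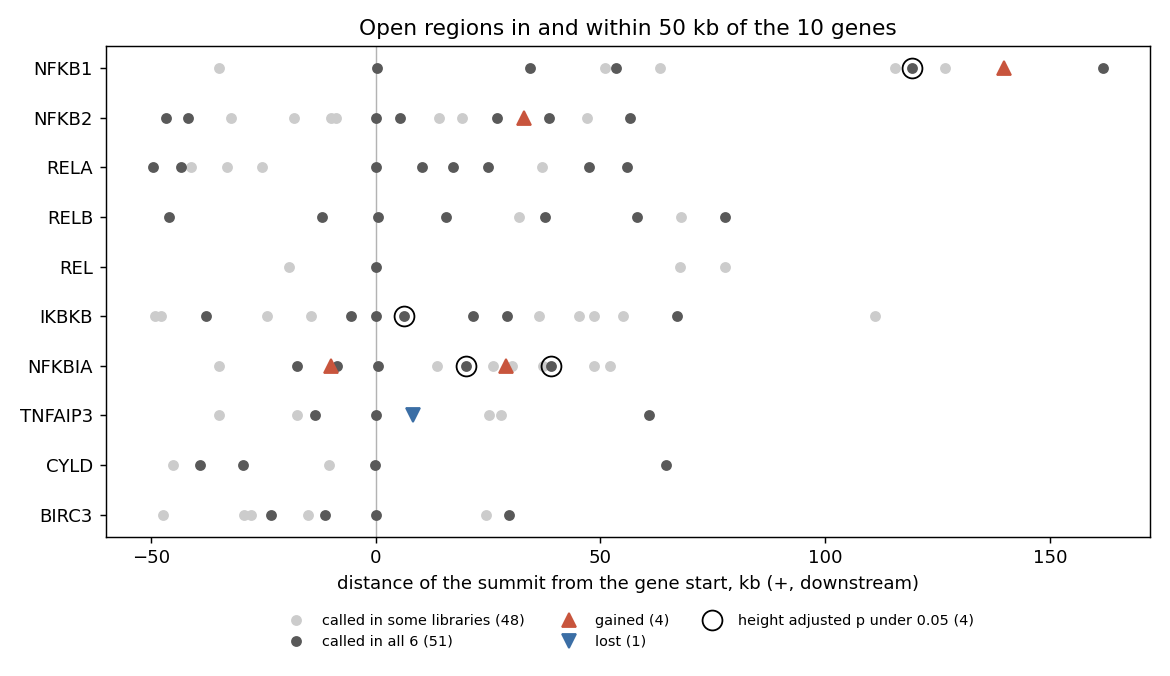
Distance of each of the 104 regions from the start of its gene in kb (x axis, downstream positive) for the 10 genes (y axis), with the regions called in all 6 libraries in dark grey, gained regions as red triangles, the lost region as a blue triangle, and a ring around the 4 with a height adjusted p under 0.05. NFKBIA holds 2 of the 4 rings and 2 of the 4 gained regions.

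NFKBIA held more of these regions than any other member. The largest change was 20.1 kb downstream of its start, at chr14:35384284-35385984, in sequence with no annotated protein-coding gene and with NFKBIA as the nearest start. Its height was -0.73, -1.56 and -1.87 in vector replicates 1, 2 and 3 and 0.23, 0.49 and -0.09 in MyoD-deleted replicates 1, 2 and 3. Every MyoD-deleted library was above every vector library, with vector replicate 1 closest to them. The change was 1.60 ± 0.25 (SE), or 3.03-fold (limma, adjusted p = 0.00016), and it passed in every height setting tried. The pileup behind it was 49, 19 and 18 fragments in vector libraries and 68, 93 and 64 in MyoD-deleted libraries.

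The local background of this region was also higher, at 4.77, 2.38 and 3.04 fragments in vector libraries and 7.22, 8.39 and 6.52 in MyoD-deleted libraries. By rank of fold enrichment, which divides by that background, the region did not pass (adjusted p = 0.267, mean percentile 27.3 in vector and 44.2 in MyoD-deleted libraries). The part of the background in the result was not tested.

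A region 39.0 kb downstream (chr14:35365224-35366198) rose as well. It was at -0.79, -0.45 and -0.40 in vector libraries and at 0.21, 0.24 and -0.18 in MyoD-deleted libraries, without overlap. The change was 0.63 ± 0.18, or 1.55-fold (adjusted p = 0.0147). Without MyoD-deleted replicate 1 it was 0.58 (adjusted p = 0.0789), without MyoD-deleted replicate 2 it was 0.56 (adjusted p = 0.0743), and by rank the sign turned (-0.11 inverse-normal units, adjusted p = 0.762). Here too the local background was higher, 8.09, 8.77 and 6.74 against 6.14, 4.02 and 5.95.

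Both gained regions of NFKBIA were weaker. The one 28.9 kb downstream (chr14:35375629-35376186) was at -1.33, -1.19 and -1.63 in MyoD-deleted libraries. The one 9.9 kb upstream (chr14:35414419-35414867) was at -1.27, -1.19 and -1.04. Vector libraries had no call in either. Their lowest called heights anywhere were -3.02, -2.81 and -2.87. These need not be the limit for a call at these 2 places, since a call also depends on the local background. In the other direction, the region 17.6 kb upstream (chr14:35422166-35423015) was at -0.58, -0.60 and -0.32 in vector libraries and at -0.86, -1.04 and -1.04 in MyoD-deleted libraries, which did not overlap (difference -0.48 ± 0.19, adjusted p = 0.0704). Over all 14 NFKBIA regions, vector replicates 1, 2 and 3 called 6, 6 and 7, and MyoD-deleted replicates 1, 2 and 3 called 10, 10 and 11. These are 42.9% to 50% against 71.4% to 78.6% of the 14, where the same libraries called 69.9%, 59.1% and 61.0% against 69.1%, 75.0% and 75.2% of all regions, and 73, 66 and 69 against 75, 78 and 82 of the 104 regions of the 10 genes. A call in any 1 library was enough for a region to be among the 14. Several were called in MyoD-deleted libraries only, some of them in a single library. The counts thus include the gained regions above and are not a separate result.

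**Figure D3:**
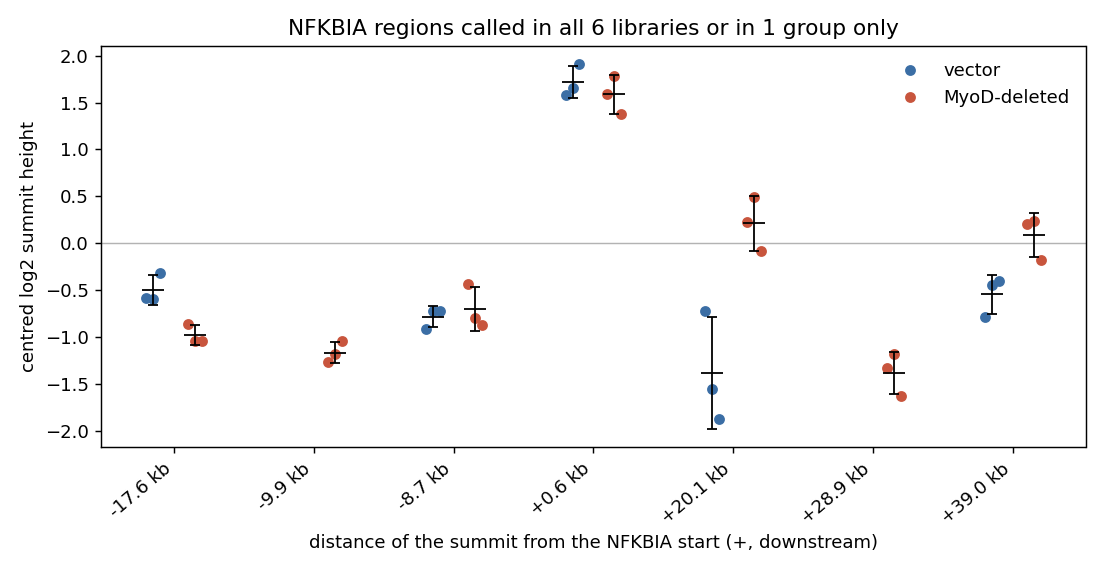
Centred log2 summit height (y axis) of the NFKBIA regions called in all 6 libraries or in 1 group only, placed by the distance of the summit from the NFKBIA start in order along the gene (x axis, not to scale), with vector libraries in blue, MyoD-deleted libraries in red, and the mean and SD in black. The regions at +20.1 and +39.0 kb are higher in MyoD-deleted libraries, those at -9.9 and +28.9 kb have no call in vector libraries, and the 5′ region at +0.6 kb overlaps between groups.

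The sequences of the 4 NFKBIA regions that rose or were gained are given to show the motifs around their summits. The κB consensus was in 0 of the 14 NFKBIA regions within 100 bp of the summit, those without a change included. Each is the 201 bases centred on the summit, on the forward strand of hg38, at chr14:35384528-35384728, chr14:35365600-35365800, chr14:35375708-35375908 and chr14:35414535-35414735 in that order. Capitals mark the E box CAGCTG, a site that MyoD is known to bind, the AP-1 sites TGACTCA or TGAGTCA, and the TEAD site GGAATG, each on either strand.
+20.1 kb: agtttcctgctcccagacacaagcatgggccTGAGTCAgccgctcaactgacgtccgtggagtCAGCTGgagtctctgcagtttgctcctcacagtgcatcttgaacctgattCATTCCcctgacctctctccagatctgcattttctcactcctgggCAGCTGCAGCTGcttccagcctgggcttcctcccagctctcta
+39.0 kb: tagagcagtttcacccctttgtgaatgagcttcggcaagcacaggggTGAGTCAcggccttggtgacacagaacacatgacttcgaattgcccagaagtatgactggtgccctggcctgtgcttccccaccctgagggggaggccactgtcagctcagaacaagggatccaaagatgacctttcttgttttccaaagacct
+28.9 kb: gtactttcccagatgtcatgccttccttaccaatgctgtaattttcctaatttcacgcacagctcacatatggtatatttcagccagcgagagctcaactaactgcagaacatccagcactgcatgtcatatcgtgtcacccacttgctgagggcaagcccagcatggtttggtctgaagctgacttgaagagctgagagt
-9.9 kb: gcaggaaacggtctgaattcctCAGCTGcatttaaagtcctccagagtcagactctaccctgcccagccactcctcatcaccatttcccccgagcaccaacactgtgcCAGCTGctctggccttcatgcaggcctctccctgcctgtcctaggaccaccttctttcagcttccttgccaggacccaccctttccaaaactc

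The region at +20.1 kb held 3 CAGCTG sites, 1 AP-1 site and 1 GGAATG site, and the gained region at -9.9 kb held 2 CAGCTG sites. The region at +39.0 kb held 1 AP-1 site, and the one at +28.9 kb held none of the motifs. Within 100 bp of the summit, 30.1% of the 83 member regions away from starts held CAGCTG and 20.5% an AP-1 site, beside 26.3% and 19.6% of all regions away from starts. GGAATG was in 14.5% of the 83, beside 18.5%. The κB consensus was in 4.8% of them, beside 5.7%.

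IKBKB was the member with a lower region. It was in intron 2, 6.2 kb downstream of the start (chr8:42276989-42277935), at -0.64, -0.19 and -0.32 in vector libraries and at -0.86, -1.52 and -1.04 in MyoD-deleted libraries. This region held 1 AP-1 site and 1 GGAATG site within 100 bp of its summit. The groups did not overlap, and the fall of 0.76 ± 0.21 had an adjusted p of 0.0139. It was -0.66 without vector replicate 2 (adjusted p = 0.077), -0.72 without vector replicate 3 (adjusted p = 0.0552) and -0.57 without MyoD-deleted replicate 2 (adjusted p = 0.0818), and it did not pass by rank (-0.57 inverse-normal units, adjusted p = 0.14). A region 37.7 kb upstream, nearer to the start of PLAT, was at -1.30, -1.72 and -1.09 against -2.16, -2.14 and -1.77 (chr8:42233260-42234238; difference -0.65 ± 0.24, adjusted p = 0.053). Of the 7 IKBKB regions called in all 6 libraries, 1 passed, and the median change was -0.18.

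The Rel family genes had 1 called change in 28 regions. A region 119.4 kb from the NFKB1 start, just past the end of the gene (chr4:102619872-102621176), was at 0.23, 0.51 and 0.30 in vector libraries and at 0.88, 0.90 and 0.54 in MyoD-deleted libraries, without overlap. The change was 0.43 ± 0.14 (adjusted p = 0.0375). It did not pass when vector replicate 1 or 3 or MyoD-deleted replicate 1 or 2 was left out, with changes of 0.37, 0.40, 0.37 and 0.37 and adjusted p of 0.071, 0.0945, 0.153 and 0.144, nor by rank (0.13 inverse-normal units, adjusted p = 0.737). A region gained 139.7 kb from the NFKB1 start lay in intron 13 of MANBA, at -2.40, -2.72 and -2.18. The region gained near NFKB2, 32.9 kb downstream, lay in intron 1 of CUEDC2 and closest to the start of PSD, at -1.54, -1.52 and -1.84.

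Another region 46.7 kb upstream of NFKB2, in intron 4 of GBF1, was at 0.23, 0.26 and 0.04 against 0.02, 0.02 and -0.09, without overlap (difference -0.19 ± 0.15, adjusted p = 0.399).

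RELA, RELB and REL had no region gained, lost or past the threshold in height. At an unadjusted p under 0.05, 1 RELA region was lower, 2 RELB regions were higher and 0 of the single REL region. The RELB region with the largest change, 58.2 kb downstream in intron 8 of CLASRP, was at -0.98, -0.90 and -0.65 against -0.54, -0.46 and -0.25 (difference 0.43 ± 0.19, adjusted p = 0.106). The RELA region that was lower lay 17.2 kb downstream in a coding exon of SIPA1, at 0.21, 0.17 and 0.30 against -0.30, -0.19 and 0.06 (difference -0.37 ± 0.16, adjusted p = 0.0975).

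**Figure D4:**
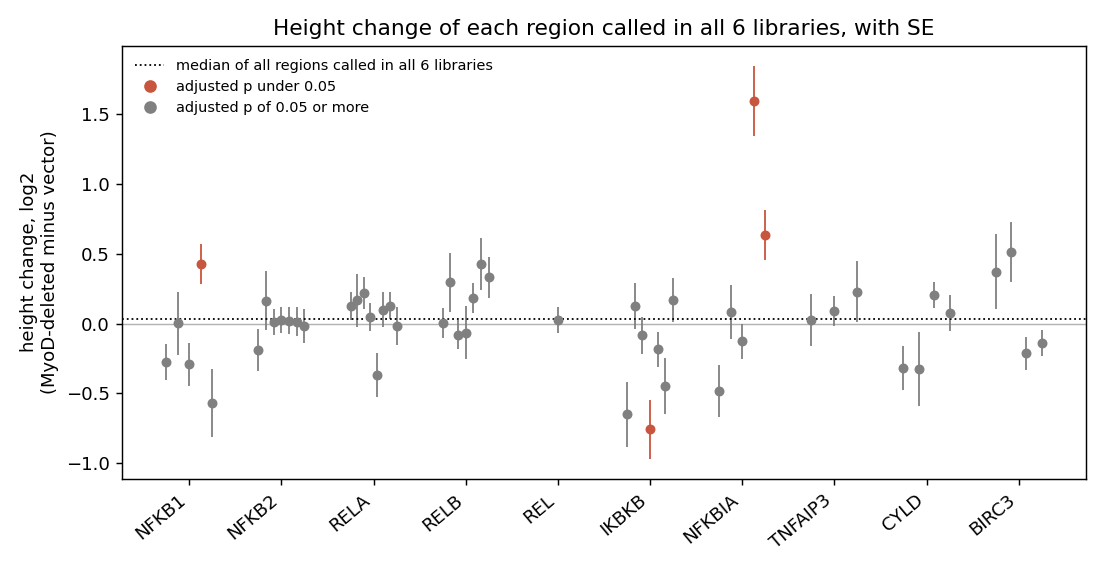
Height change in log2, MyoD-deleted minus vector (y axis), with its SE, for each of the 51 regions called in all 6 libraries, by gene (x axis) and in order of position. Red points passed at an adjusted p under 0.05, and the dotted line is the median of all 47885 regions, 0.04. The 4 red points are 1 of NFKB1, 1 of IKBKB and 2 of NFKBIA.

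Of the ubiquitin regulators, TNFAIP3 had the lost region. It lay in intron 3, 8.2 kb downstream of the start (chr6:137875233-137875663), at -2.02, -1.72 and -2.34 in vector libraries, and it was called in no MyoD-deleted library. No motif of those searched lay within 100 bp of its summit. CYLD had 4 regions called in all 6 libraries and none passed. Those 39.1 and 29.5 kb upstream lay in introns of NOD2, an intracellular sensor of bacterial peptidoglycan that signals to NF-κB, and differed by -0.32 ± 0.16 and -0.33 ± 0.27 (adjusted p = 0.165 and 0.426). A BIRC3 region 11.2 kb upstream was at -1.82, -1.64 and -1.52 against -1.05, -1.0 and -1.39, without overlap (chr11:102305743-102306609; difference 0.51 ± 0.21, adjusted p = 0.094).

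The limit of 50 kb decided which regions were counted. Just inside it, on the far side of IKBKB, was a region called in vector replicate 2 alone, at -2.22. Just outside it, 50.3 kb from the TNFAIP3 body, was one called in vector replicate 1 alone, at -2.34.

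Changes near other genes of the pathway were counted in the same way. Among 35 further genes, 262 of 448 regions were called in all 6 libraries, and 31 of these were higher (11.8%) and 26 lower (9.92%), against 11.4% and 12.8% of all regions. Of the 448, 11 were gained (2.46%) and 6 lost (1.34%), against 4.56% and 1.78%. Without centring 68 were higher and 15 lower, and by rank 12 (4.58%) and 4 (1.53%), against 4.12% and 4.67%. Leaving out vector replicate 2 gave 19 higher and 20 lower, and leaving out MyoD-deleted replicate 2 gave 25 and 16. They share 5 regions with the 10 genes, since BIRC2 neighbours BIRC3. Of regions called in all 6 libraries, 9 of 55 were higher and 4 lower near other kinases and activators, 8 and 5 of 62 near receptor-proximal genes, 4 and 7 of 58 near ubiquitin-editing genes, 1 and 6 of 39 near the other IκB genes, and 9 and 4 of 48 near inducible targets.

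The 5 largest of these changes were within 50 kb of the non-canonical kinase gene MAP3K14, of BIRC2, of TRAF1 and, with a pair of regions, of NFKBIB. A region 24.9 kb upstream of MAP3K14, which encodes NIK, was at -1.34, -1.56 and -0.83 against 0.16, 0.98 and 0.53 and rose by 1.80 ± 0.22 (adjusted p = 1.71e-05), and it also rose by rank (adjusted p = 0.0296). A region 42.7 kb upstream of TRAF1, a signalling adaptor, fell by 1.27 ± 0.20 (adjusted p = 0.00015). The BIRC2 region, closest to the start of TMEM123, fell by 1.42 ± 0.27 (adjusted p = 0.000929), with MyoD-deleted libraries at -0.33, -1.87 and -1.18. Both NFKBIB regions, closest to the start of RINL, fell by 1.24 ± 0.19 and 1.17 ± 0.19. By rank none of these 4 passed, with adjusted p of 0.0607 for TRAF1, 0.0751 for BIRC2, and 0.11 and 0.266 for NFKBIB.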

How the data were processed

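ATAC-seq libraries of 3 vector and 3 MyoD-deleted RH30 samples were grouped by the labels. The authors aligned reads to hg38 with Rsubread, kept proper pairs with GenomicAlignments and called peaks per library with MACS2, without pooling. Per peak, the authors deposited a fold enrichment (the ratio of the summit pileup over its local background) beside the −log10 p, the −log10 q and a score derived from q. None is normalized between libraries. Whole pileups and backgrounds were recovered from fold enrichment and p under the Poisson model of the peak caller for 100% of peaks. Regions were merged in Python 3.11.15 on autosomes, X and Y, without 1 peak on the mitochondrial genome in each library. A merge with bedtools 2.31.1 gave the same number of regions. Heights and inverse-normal ranks were tested with limma 3.58.1 (trend) in R 4.3.3, with Benjamini-Hochberg adjustment over 47885 regions and a threshold of 0.05. Genes were from GENCODE 44. Depth per library is unknown. The steps were tested on simulated data.

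The members and gene lists were chosen with earlier results of these data known. Regions named are each 5′ region (within 2 kb of the start), every gained or lost region and every region past the threshold, plus those whose groups did not overlap, those beside the 50 kb limit and a pair of CYLD regions, which were chosen after their values were seen. For the pathway genes, the 5 largest changes past the threshold are named. Alternatives were no centring, ranks, a distance of 10 kb, peaks that cover 50% of a region, equal numbers of peaks, a minimum −log10 q of 5, the replicate number as a block, and each library left out. Alternatives for the pathway genes were chosen after seeing the data.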

Additional observations from a re-analysis of the deposited data

How the results depend on the processing

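For the 51 regions called in all 6 libraries, the 3 higher and 1 lower became 9 and 1 without centring, 0 and 1 by rank (the 1 being the BIRC3 5′ region, not the IKBKB region), and 1 and 1 within 10 kb of the gene bodies, and they stayed at 3 and 1 with a −log10 q of at least 5, with equal numbers of peaks and with the replicate number as a block. Leaving out 1 library gave 1 to 3 higher (1 without MyoD-deleted replicate 1 or 2) and 1 to 2 lower (2 without vector replicate 1 or 2 or MyoD-deleted replicate 3). The ranked counts of 0 higher and 1 lower became 1 and 1 by rank of −log10 p. There the 1 lower was a region of IKBKB and not the BIRC3 5′ region. The ranked counts became 0 and 0 with the replicate block. Leaving out 1 library gave 0 to 1 ranked higher (1 without vector replicate 1) and 0 ranked lower. The 4 gained and 1 lost regions became 3 and 1 with a −log10 q of at least 5 and 2 and 2 with equal numbers of peaks. They became 5 and 2 where peaks had to cover 50% of the region, and 1 and 1 within 10 kb. With 1 library left out they came to 4 to 6 and 1 to 3 (3 lost without MyoD-deleted replicate 3). The cause of these differences was not tested.

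Of 154 values of 14 named regions under the alternatives, 136 kept their side of the threshold and 5 came to pass it. A further 12 ceased to pass with the same sign, and 1 ceased to pass with its sign turned. The sign turned in 13, of which 12 were in 5′ regions that passed in neither setting, and the other was the NFKBIA region at +39.0 kb by rank (-0.11), which lost its call. Same-numbered libraries of the groups deviated together with correlations of -0.04, -0.20 and 0.09, and differently numbered ones with -0.23 to 0.26. These values cannot show whether same-numbered samples were prepared together, since deviations from a mean of 3 libraries depend on each other. The block changed no height call of the 51 regions. It took the other pathway regions from 31 higher and 26 lower to 27 and 24. The lists hold no reads, so depth limits weak regions by an unknown amount.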
